A study of Mus musculus with 6 samples.

Results

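The genes described here are the Wnt ligands, the Frizzled receptors and the proteins that help Wnt signals leave and reach cells, 40 mouse genes chosen by name. Of these, 37 had a probe set annotated to them alone, out of 12393 genes on the arrays, and Rspo3, Lgr4 and Fzd10 were not in the probe annotation used here. Each gene was represented by its probe set with the highest mean signal over all arrays, and the 16 other probe sets of 12 of these genes are given beside it. RNA came from whole whisker pads, the skin of the snout that grows the vibrissae, dissected at E12.5, when vibrissa placodes form. There were 3 wild-type embryos and 3 embryos homozygous for a mutation of Trps1, a gene for an atypical GATA-type zinc finger repressor, and each embryo gave 1 Affymetrix MOE430A array. The strain, the sex and the nature of the Trps1 allele are not stated in the labels. The series title asks for the transcriptional targets of Trps1 in vibrissae, and the comparison here is that of mutant with wild-type pads.

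Wnt proteins are secreted signals that carry a lipid. Porcn, an enzyme of the endoplasmic reticulum, attaches the lipid, and Wls, a membrane carrier, takes the finished ligand to the cell surface. On the receiving cell a ligand binds a Frizzled receptor together with the co-receptor Lrp5 or Lrp6, and beta-catenin then accumulates and turns on target genes. Some ligands, Wnt5a being the best known, act through Ror2 or Ryk without beta-catenin and orient cells in a tissue. R-spondins bind Lgr4, Lgr5 or Lgr6 and keep Frizzled receptors at the surface, while Kremen1 helps Dkk inhibitors take Lrp6 away. In skin, Wnt signalling through beta-catenin is required for hair placodes to form, and Wnt10b is one of the earliest ligands concentrated in the placode.

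Signals are in arbitrary linear units, means are given ± SD with n = 3, and a difference is the mutant mean less the wild-type mean of log2(signal + 16). Probe sets bind with different strength, so signals of different genes are not amounts that can be ranked. As a floor, 27 control probe sets for Bacillus transcripts, which mouse RNA should lack, read at most 33.8, and a gene is called above the control where its mean exceeds that value. Array medians were 90.45 to 101.5. The first principal component, with 28.7% of the variance, set both replicate 3 arrays apart from the other 4. Wild-type replicate 3 read as female (Xist 461.5, Eif2s3y 11.9) and the other 5 arrays as male. Trps1 itself read 748.1 to 1061.4 in wild-type embryos and 1297.3 to 1506.7 in mutants, and the labels do not place that probe set relative to the mutation. Surface epithelium (12 of 12 markers) and dermal and facial mesenchyme (11 of 13) were above the control in at least 1 group, beside 79.1% of all genes.

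Most of the machinery was measurable at this stage. Of the 37 genes, 27 had both group means above the control, 2 (Wnt2 and Wnt5b) had 1 group mean above it, and 8 had neither. Over all genes, 79.1% had at least 1 group mean above it, so the 29 here are not above the background. The 8 were the ligands Wnt1, Wnt3, Wnt8b, Wnt9a and Wnt16, the receptors Fzd5 and Fzd9, and the co-receptor Lrp5. Above it in both groups were 10 of 17 ligands, 7 of 9 Frizzled genes, both R-spondins, both Lgr genes, Lrp6, Kremen1, Ror2, Ryk, Porcn and Wls. A reading under the control does not show that a transcript is absent, since few cells or a weak probe set give the same result. In whole tissue, fewer cells of a type and less RNA per cell cannot be told apart.

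**Figure D1:**
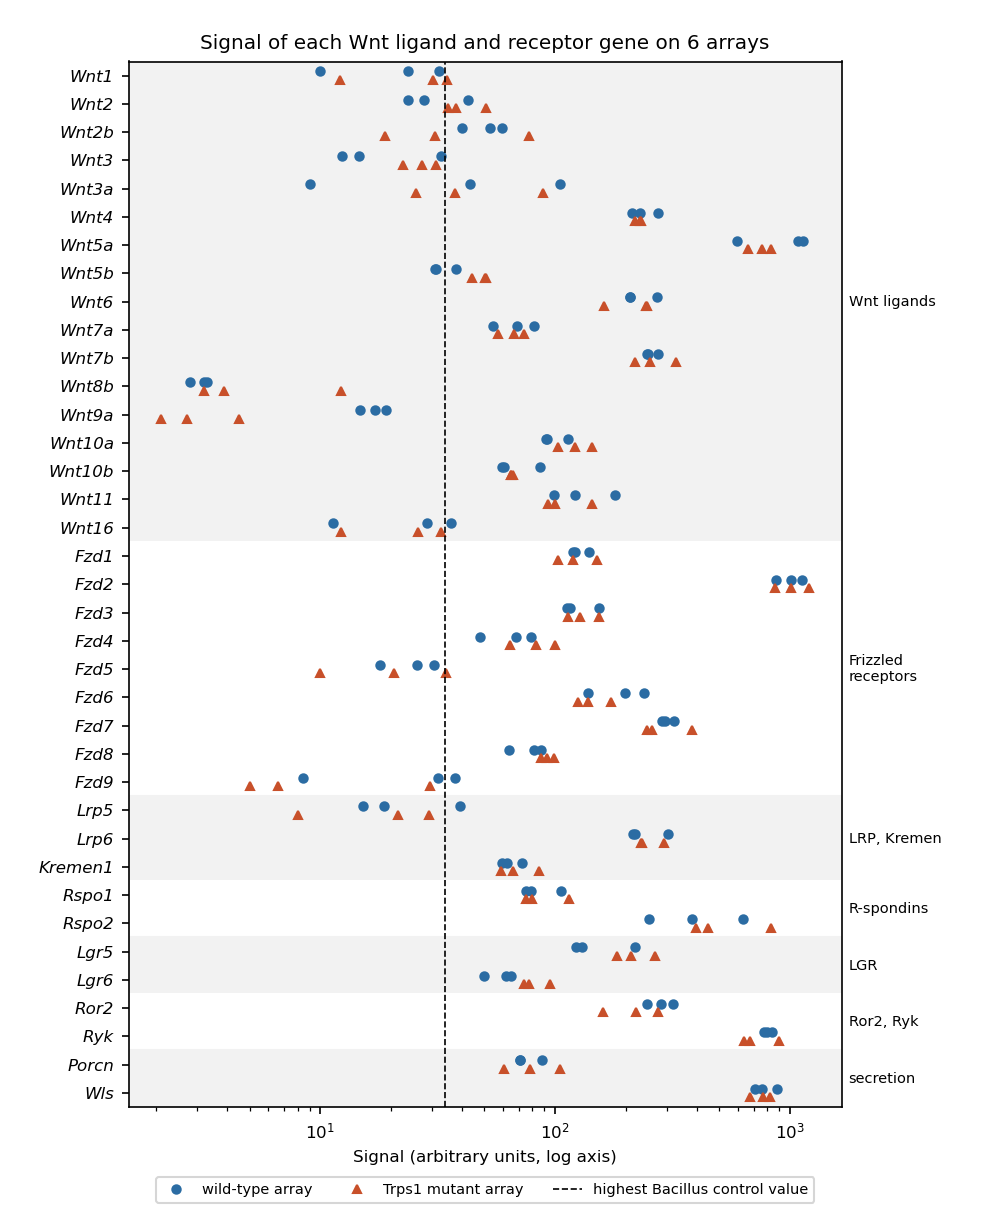
Signal of the brightest probe set of each of 37 genes (rows) on a log axis in arbitrary units, with 1 point per array: circles for 3 wild-type and triangles for 3 Trps1 mutant arrays. The dashed line marks the highest Bacillus control value, 33.8. Circles and triangles overlap in all but 3 rows, Wnt5b, Wnt9a and Lgr6.

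No gene of this set was called different between mutant and wild-type embryos. Limma with Benjamini-Hochberg adjustment over all 12393 genes called 0 of the 37, with adjusted p from 0.553 to 0.996, and it called 0 genes on the whole array (0% of those tested). Wnt5b and Lgr6 were higher and Wnt9a lower at an unadjusted p under 0.05. Over all genes, 2.89% were higher and 2.49% lower at that limit. Those 3 were also the genes whose groups did not overlap, against 10.4% of all genes, so 3 of 37 is not above the background. The median difference over the set was 0.03, beside 0.00017 over all genes, and 19 genes lay above 0 and 18 below. By role the median was -0.03 for 17 ligands and -0.04 for 9 Frizzled genes. With the unpaired test and the threshold of the study's design text (unadjusted p of at most 0.05 and at least 1.5-fold), Wnt9a alone passed, and 1.5% of all genes did. Wnt9a was under the control on every array. This test used the deposited signals of 1 probe set per gene, not the authors' normalized values, so it does not repeat theirs. None of the 53 probe sets of these genes is among the 65 rows of the authors' deposited table.

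The size of change the arrays could have missed differs from gene to gene. Of the 27 genes above the control in both groups, 23 had a 95% interval of the difference that lay between -1 and 1 on the log2(signal + 16) scale, and 15 had one between -0.58 and 0.58. On this scale a given change of signal counts for less in a dim gene, so these limits are not folds of signal. The intervals of Wnt2b, Wnt3a, Rspo2 and Lgr5 reached past 1 in size. Within wild-type embryos, the coefficient of variation of the 27 genes ran from 3.9% to 92.5%, with a median of 16.3%. In mutants it ran from 1.46% to 73.1%, with a median of 19.2%.

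**Figure D2:**
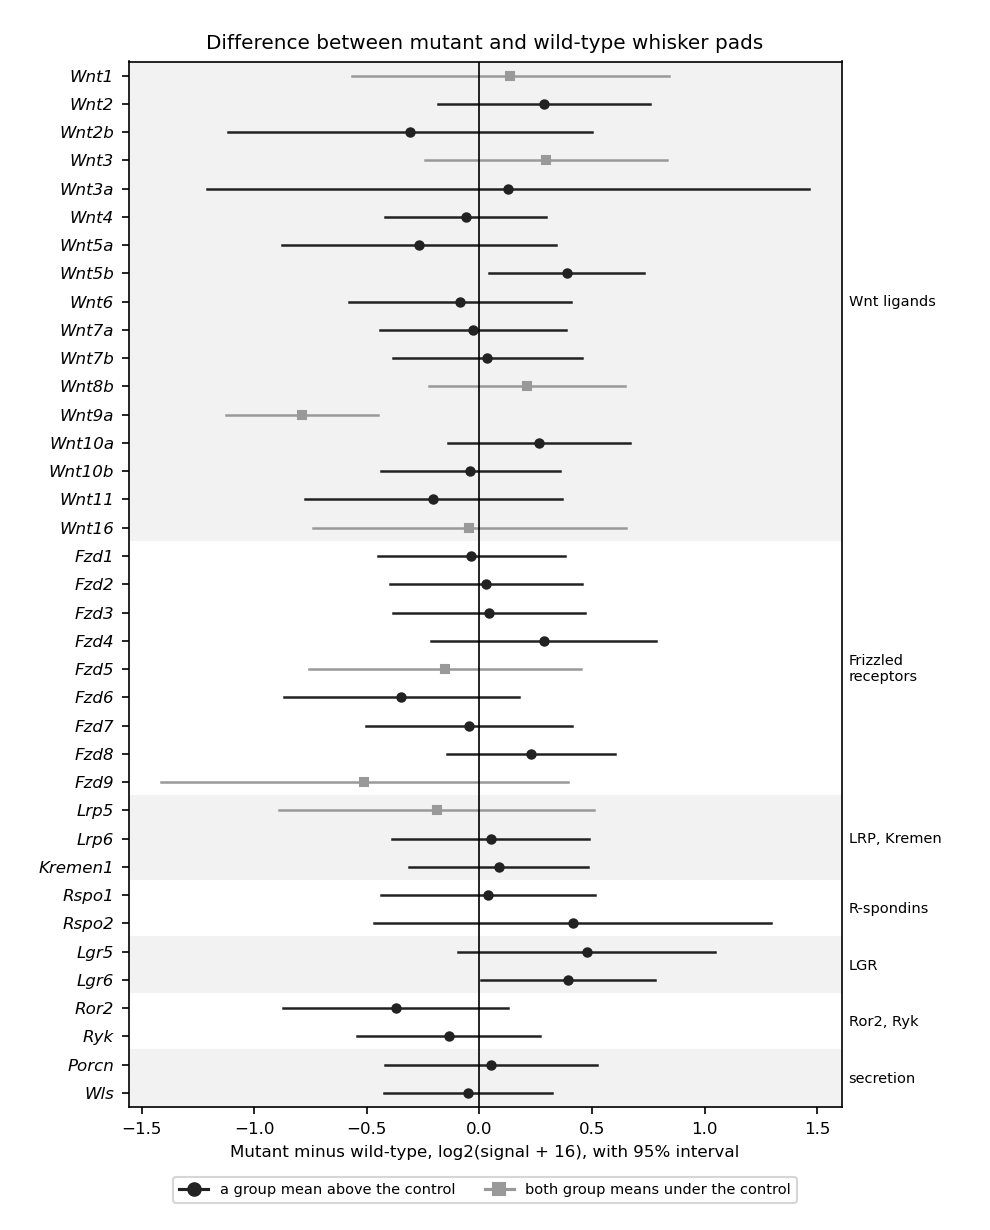
Mutant minus wild-type difference of each of 37 genes on the log2(signal + 16) scale, with its 95% limma interval as a line. Circles are genes with a group mean above the control and squares genes with both means under it. The intervals of Wnt5b, Lgr6 and Wnt9a leave out 0, and 0 of the 37 genes passed after adjustment.

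Wnt5a, the ligand that drives outgrowth of the face and limbs and acts largely without beta-catenin, read 1135.5, 1082.5 and 596.6 in wild-type embryos. In mutants it read 660.5, 756.7 and 829.1. The groups overlapped because wild-type replicate 3 lay below every mutant array, and the difference was -0.27 (SE 0.26, limma adjusted p = 0.978). Without that array it was -0.56 and the groups separated, without wild-type replicate 1 it was -0.11, and without wild-type replicate 2 it was -0.14. A second Wnt5a probe set differed by -0.21 (SE 0.42), again with overlap.

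The next ligands by wild-type signal, Wnt7b, Wnt4 and Wnt6, overlapped between the groups. Wnt7b, an epithelial ligand best known from lung, read 273.7, 246.2 and 248 in wild-type embryos and 252.3, 326 and 218.9 in mutants, with a difference of 0.03 (95% interval -0.39 to 0.46). Its dimmer probe set differed by -0.33 (SE 0.21), so the 2 probe sets gave opposite signs and neither separated the groups. Wnt4, required for kidney and ovary development, read 273.2, 212.4 and 229.7 in wild-type embryos and 218.7, 229.8 and 231.6 in mutants. All 3 mutant values fell within the wild-type range, and the interval ran from -0.42 to 0.30. Wnt6 read 272.5, 207.6 and 208 in wild-type embryos and 244.7, 245.8 and 160.6 in mutants, with mutant replicate 3 the lowest of the 6 arrays and a difference of -0.09.

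Wnt10b was 68.5 ± 15.2 in wild-type embryos and 65.3 ± 0.954 in mutants (difference -0.04, 95% interval -0.44 to 0.36). On the same arrays, summed signals of the placode, neuron, and dermal and facial mesenchyme markers did not overlap between the groups. The marker lists were chosen with earlier results of these data known, so their counts cannot show that a cell type differed. The 6 measured placode markers outside this gene set summed to 641 to 1204.8 in wild-type embryos and 446.8 to 573.9 in mutants. Of them 4 (Edar, Dkk4, Lhx2 and Sostdc1) were lower in every mutant than in every wild-type embryo, beside 4.83% of all genes. Sostdc1, the largest part of the sums, ran from 312.8 to 798.4 in wild-type embryos and from 213.2 to 312.1 in mutants. Edar and Shh had both means under the control, and 0 of the 6 markers passed after adjustment. The dermal condensate list, 8 genes of the dermis beneath the placode, gave overlapping sums of 2175.9 to 2805.6 in wild-type embryos and 1722.5 to 2253.8 in mutants. Of its genes 5 of 8 were separated and lower, beside 4.83% of all genes. Sox2 differed by -0.27 with overlap, and Bmp4 and Gdf10 differed by 0.45 and 0.15 the other way. Neuron markers summed to 2131.6 to 2304 in wild-type embryos and 2702.1 to 3083.6 in mutants. Of them 2 of 10 were separated and higher (beside 5.54% of all genes) and 1 separated and lower (beside 4.83%). Differences were above 0 for 6 of the 10 and below 0 for 4, and Gap43 and Stmn2 were the largest parts of the sums. Dermal and facial mesenchyme markers summed to 18660.9 to 18838.6 and 20375.6 to 20987.7. Of them 2 of 13 (Lum and Dcn) were separated and higher, beside 5.54% of all genes. Differences were above 0 for 7 of the 13 and below 0 for 6, with a median of 0.02, and Col3a1 was the largest part of the sums. No gene of these lists passed after adjustment. Their part in the Wnt gene levels was not tested.

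Wnt10a, a ligand of teeth, hair and other ectodermal organs, was 99.1 ± 12 in wild-type embryos and 122.7 ± 20.6 in mutants, a difference of 0.26 with overlapping groups. Without both replicate 3 arrays it was 0.45 and the groups separated, while without mutant replicate 2 it was 0.16. Wnt11, known from kidney branching, read 99.3, 121.4 and 178.9 in wild-type embryos and 99.5, 143.9 and 92.9 in mutants, and its difference was -0.21. That value rested on wild-type replicate 3, without which it was 0.0041, and without both replicate 3 arrays it was 0.11. Wnt7a, which gives the limb its dorsal side, differed by -0.03. In mutants, the coefficient of variation was 73.1% for Wnt2b and 66.4% for Wnt3a, the highest of the 10 ligands above the control in both groups. Wnt3a, a strong activator of beta-catenin, read 9, 43.3 and 104.4 in wild-type embryos alone, and its interval ran from -1.21 to 1.46. Leaving out 1 array moved the Wnt3a difference between -0.46 and 0.67. Wnt2b differed by -0.31, and its value rested on single mutant arrays in both directions. It was -0.71 with separated groups without mutant replicate 1, and close to 0 without mutant replicate 2.

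Wnt5b, a close relative of Wnt5a that regulates cartilage growth, read 30.7, 31.2 and 38 in wild-type embryos and 50.1, 44.1 and 51 in mutants. Every mutant array was above every wild-type array, yet the wild-type mean of 33.3 lay under the control. The difference was 0.39 (SE 0.15, limma adjusted p = 0.9), and leaving out 1 array gave limma unadjusted p-values of 0.028 to 0.094. The other Wnt5b probe set read under the control in both groups and differed by -0.18 (SE 0.31), and the mean over both probe sets differed by 0.10 with overlap.

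Wnt9a, a ligand of joint and skull development, read 17.1, 14.8 and 19.1 in wild-type embryos and 2.1, 4.5 and 2.7 in mutants. The groups were wide apart, but all 6 values lay under the control, so no fold is given. The difference on the offset scale was -0.79 (SE 0.15, limma adjusted p = 0.553), and an exact permutation test gave 0.1, the smallest p that 3 arrays against 3 allow. With signals under 32 set to 32, the difference was 0. Wnt2, at 31.3 ± 10 and 41.2 ± 8.51, differed by 0.29, and the other 4 ligands under the control differed by -0.04 to 0.30 with overlapping groups.

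Some ligand genes sit side by side in the mouse genome as remnants of an ancient cluster, and in the reference gene order 3 pairs of these genes were next to each other. Wnt6 and Wnt10a differed by -0.09 and 0.26, Wnt10b and Wnt1 by -0.04 and 0.14, and Wnt3a and Wnt9a by 0.13 and -0.79. Of these 6 genes only Wnt9a, under the control throughout, separated the groups.

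**Figure D3:**
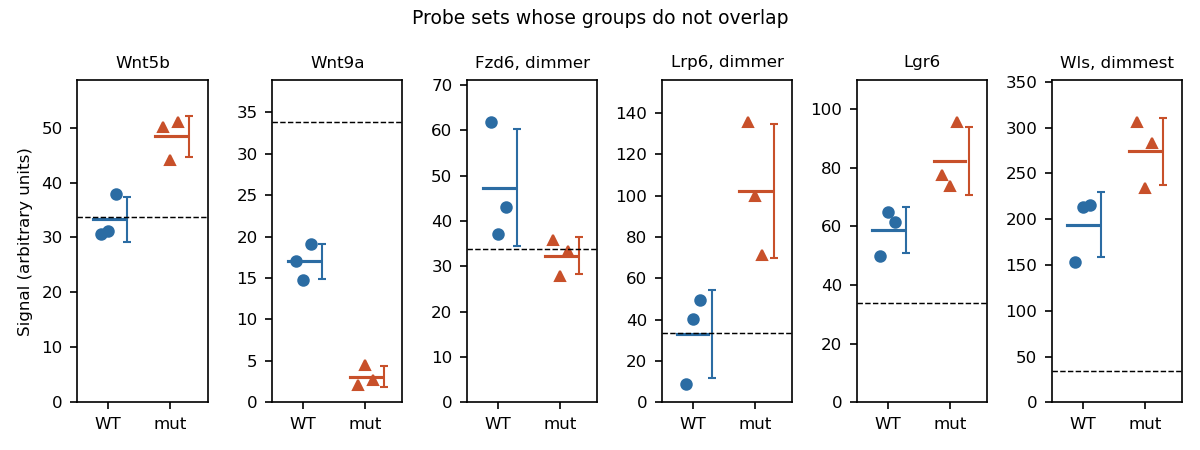
Signals (arbitrary units, linear axes from 0) of the 6 probe sets of these genes whose groups do not overlap, with 1 symbol per array, a bar at each group mean and an error bar of 1 SD beside it. The dashed line is the highest Bacillus control value, 33.8. Wnt5b, Wnt9a and Lgr6 are the brightest probe sets of their genes, and the Fzd6, Lrp6 and Wls panels show dimmer ones.

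Among the Frizzled receptors, Fzd2 read 870.7, 1008.8 and 1120.2 in wild-type embryos and 1007.2, 861.8 and 1205.1 in mutants. The ranges nearly coincided and the difference was 0.03 (95% interval -0.40 to 0.46). Its other probe sets, also bright, differed by -0.24 (SE 0.20) and 0.07 (SE 0.27). Fzd7 read 292.9, 320.6 and 285.5 in wild-type embryos and 381.5, 257.3 and 245.4 in mutants, so that mutant embryos lay on both sides of the wild-type range. Fzd3, a receptor that guides axons and orients hair follicles, read 154.4, 112 and 116.1 against 127.2, 153.2 and 113.7. Its difference was 0.04, and 2 other probe sets above the control gave -0.11 and 0.07.

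Fzd6, whose loss in mice disturbs the direction in which hairs grow, read 197.9, 138.3 and 238.7 in wild-type embryos and 124.5, 137.5 and 173.5 in mutants. The difference was -0.35 (SE 0.22, limma adjusted p = 0.958), with overlap between mutant replicate 3 and wild-type replicate 2. It was -0.55 with separated groups without wild-type replicate 2, and -0.18 without wild-type replicate 3. The dimmer Fzd6 probe set read 61.8, 37.1 and 43 in wild-type embryos and 35.8, 27.8 and 33.4 in mutants, which did not overlap. It differed by -0.37 (SE 0.19, limma adjusted p = 0.966 over all 22626 probe sets). Fzd6 was the only Frizzled gene with 2 probe sets above the control in a group that differed by over 0.3 in the same direction, and neither passed.

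Of the remaining receptors, Fzd4, needed for blood vessels of the retina, differed by 0.29 and Fzd8 by 0.23, each with overlap. Fzd1 differed by -0.04. Fzd5 and Fzd9 read under the control, and Fzd9 ranged from 5 to 37.4 over the 6 arrays.

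Lrp6, the co-receptor with the stronger role in embryonic Wnt signalling, read 218, 301.1 and 214.5 in wild-type embryos and 232.2, 233.7 and 290.7 in mutants at its brightest probe set. The difference was 0.05 (95% interval -0.39 to 0.49). A second Lrp6 probe set behaved differently, with 9, 40.6 and 49.4 in wild-type embryos and 135.7, 99.9 and 71.4 in mutants. There every mutant array was above every wild-type array, and the difference was 1.35 (SE 0.39, limma adjusted p = 0.779 over all probe sets). The wild-type mean of 33 at that probe set lay under the control. Of the 53 probe sets of these genes 6 did not overlap and 4 had an unadjusted p under 0.05, beside 10.2% and 5.27% of all probe sets. The part of the transcript that each probe set reads was not looked at here. Kremen1 read 72, 62.5 and 59.6 in wild-type embryos and 58.9, 85.4 and 66.1 in mutants, overlapping values with a difference of 0.09. Lrp5, under the control, was 24.4 ± 13 and 19.4 ± 10.6.

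**Figure D4:**
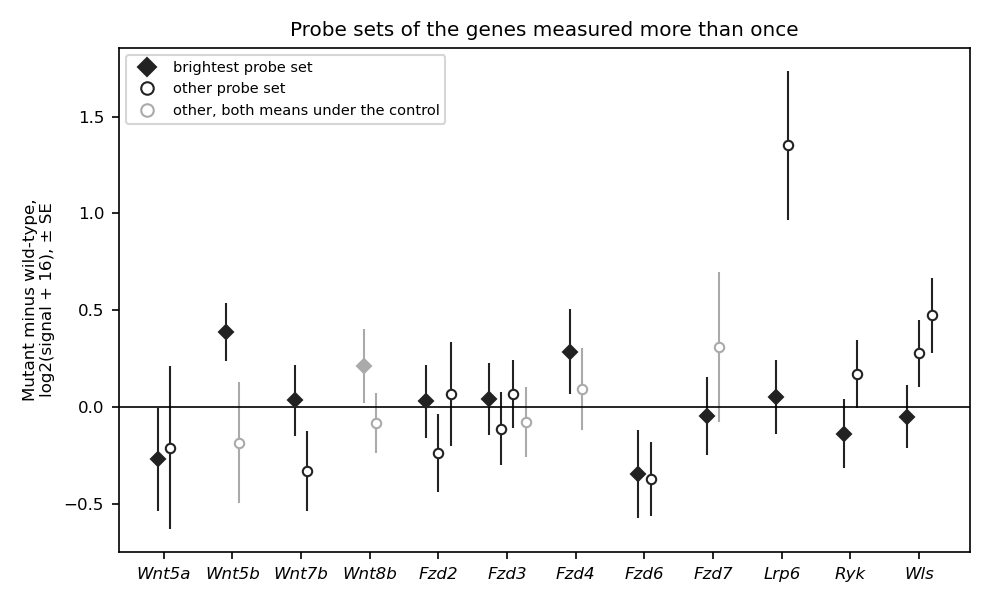
Mutant minus wild-type difference ± SE on the log2(signal + 16) scale for every probe set of the 12 genes measured more than once. Diamonds are the brightest probe set of a gene, open circles the others, and grey symbols have both group means under the control. The 2 probe sets of Fzd6 lie together at -0.35 and -0.37, while those of Lrp6 lie apart at 0.05 and 1.35.

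Lgr6, an R-spondin receptor that marks embryonic placodes and later stem cells of the upper hair follicle, read 49.9, 64.8 and 61.5 in wild-type embryos and 77.5, 73.7 and 95.5 in mutants. All 3 mutant values were above every wild-type value and all 6 were above the control. The difference was 0.39 (95% interval 0.0088 to 0.78, limma adjusted p = 0.918 over all genes). Lgr6 was also on the placode marker list, and it was the only one of the 8 measured there with a difference above 0. Wnt10b (-0.04) and Shh (-0.01, under the control) lay close to 0. That list was chosen with earlier results of these data known, so the contrast is no test. Leaving out 1 array gave differences of 0.30 to 0.46 and limma unadjusted p-values of 0.052 to 0.15, none of them under 0.05.

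Lgr5, the related receptor of cycling follicle stem cells, read 218.1, 122.1 and 130.3 in wild-type embryos and 265.7, 210 and 184.1 in mutants. Wild-type replicate 1 lay within the mutant range, while each mutant array was above the wild-type array of the same replicate number. The difference was 0.48 (SE 0.24, limma adjusted p = 0.93, unadjusted p = 0.0897). A fit blocked on that number gave an unadjusted p of 0.033 and an adjusted p of 0.834, and without wild-type replicate 1 the difference was 0.72. Among genes with overlapping groups, Wnt2, Fzd4 and Fzd8 were also higher in each same-number comparison, and Fzd6 and Ror2 lower in each. The share of all genes with such an order was not counted, so neither Lgr5 nor these genes can be read as a pattern. The ligand Rspo2, needed for limb and face development, read 251.8, 629.7 and 380.9 in wild-type embryos and 398.4, 448.8 and 827.8 in mutants. Its largest value came from mutant replicate 3, and the difference was 0.41 (SE 0.38). It was 0.10 without that array and 0.11 without wild-type replicate 1, but 0.74 with separated groups without wild-type replicate 2. Rspo1, best known for its part in ovary development, read 79.1, 106.3 and 75 in wild-type embryos and 75.3, 79.8 and 114.9 in mutants, a difference of 0.04.

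Ror2, a receptor for Wnt5a, read 281.7, 246.3 and 317.4 in wild-type embryos and 160.1, 220 and 272.7 in mutants. Of the mutant arrays 2 lay under every wild-type value, and the difference was -0.37 (SE 0.21, limma adjusted p = 0.93). It was -0.18 without mutant replicate 1. The groups separated at -0.54 without mutant replicate 3, and at -0.46 when wild-type replicate 2 was left out. Ryk, a Wnt-binding receptor with an inactive kinase, read 834.3, 793.9 and 772.8 in wild-type embryos, the narrowest spread of the genes above the control. In mutants it read 895.1, 672.5 and 634.8, a difference of -0.14. Its second probe set differed by 0.17 (SE 0.18), so the sign was not shared.

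In the secretion step, Porcn read 70.8, 87.7 and 70.8 in wild-type embryos and 78.3, 60.5 and 104.6 in mutants, a difference of 0.05. Porcn lies on the X chromosome, and wild-type replicate 3, which read as female, gave the same value as wild-type replicate 1. Wls read 761.1, 877.5 and 708.9 in wild-type embryos and 820, 675.7 and 769.2 in mutants at its brightest probe set, a difference of -0.05 (95% interval -0.42 to 0.32). Its other probe sets differed by 0.28 (SE 0.17) and 0.47 (SE 0.19). The last of these read 153.1, 213.7 and 215.1 in wild-type embryos and 306, 233.9 and 282.6 in mutants without overlap (limma adjusted p = 0.94 over all probe sets). The sign at Wls thus depended on the probe set.

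Other genes of the pathway gave a like picture, and 0 passed in any list. Over all genes, 2.89% were higher and 2.49% lower with a limma unadjusted p under 0.05, and the counts of each list are to be read beside these shares. Of 13 measured genes that act at the receptor, 1 was higher and 1 lower at that limit, with a list median of -0.05. Sdc4, a heparan sulfate proteoglycan that also appears in the authors' deposited table from the same arrays, read 117.6 ± 43 in wild-type embryos and 207.6 ± 32.7 in mutants. A second Sdc4 probe set differed by -0.0028 (SE 0.36). The ligand Wnt8a, at 17.1 ± 8.86 and 5.73 ± 3.11, was under the control. Of 37 measured genes between the receptor and the nucleus, 1 was higher and 0 lower at that limit, with a median of 0.06. That gene was Csnk1e, a kinase that phosphorylates Dishevelled, at 638.7 ± 70.7 and 887.3 ± 91.7 (difference 0.46, SE 0.16, limma adjusted p = 0.854). Its other probe set differed by 0.18 (SE 0.21), with overlap.

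Of 29 measured genes of the planar polarity and calcium branches, 1 was higher and 0 lower with an unadjusted p under 0.05. The shares of all genes were 2.89% and 2.49%, and the list median was 0.04. The higher gene was Camk2d, a calcium-dependent kinase, at 21.3 ± 1.65 in wild-type embryos and 33.5 ± 2.4 in mutants, under the control. Its other probe set gave the opposite sign. Of 7 further genes of Wnt secretion and modification, 0 reached that limit in either direction, and the median was -0.10.

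Promoter sequences are shown for the 3 genes whose groups did not overlap, since Trps1 binds DNA at GATA sites. They come from the RefSeq table for GRCm38.p6, 5′ to 3′ on the strand of the gene, from 250 bases before its start to 50 after it. The table held 29 promoters of 26 of the 40 genes, Wnt5b having 3. The motifs searched on both strands were the GATA letters AGATAA or else AGATAG or else TGATAA or else TGATAG, with the TCF/LEF letters CTTTGAA or else CTTTGAT or else CTTTGTA or else CTTTGTT, and matches are in capitals. The promoters are Lgr6 at chr1:135105227-135105526, minus strand, Wnt9a at chr11:59306680-59306979, plus strand, and for Wnt5b the 1 of 3 with a match, chr6:119449337-119449636, minus strand.
Lgr6: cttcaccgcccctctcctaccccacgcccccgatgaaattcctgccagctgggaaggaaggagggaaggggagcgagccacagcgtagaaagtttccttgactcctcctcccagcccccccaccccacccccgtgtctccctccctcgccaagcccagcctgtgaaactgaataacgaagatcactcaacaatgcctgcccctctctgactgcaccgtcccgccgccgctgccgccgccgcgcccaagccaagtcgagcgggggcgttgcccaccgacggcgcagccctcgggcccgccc
Wnt9a: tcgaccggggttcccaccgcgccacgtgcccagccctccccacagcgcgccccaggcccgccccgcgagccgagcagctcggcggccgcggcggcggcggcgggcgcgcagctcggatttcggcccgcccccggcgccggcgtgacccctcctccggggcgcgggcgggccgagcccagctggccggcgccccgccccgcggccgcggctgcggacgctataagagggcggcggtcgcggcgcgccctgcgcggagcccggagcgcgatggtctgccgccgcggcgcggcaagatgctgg
Wnt5b: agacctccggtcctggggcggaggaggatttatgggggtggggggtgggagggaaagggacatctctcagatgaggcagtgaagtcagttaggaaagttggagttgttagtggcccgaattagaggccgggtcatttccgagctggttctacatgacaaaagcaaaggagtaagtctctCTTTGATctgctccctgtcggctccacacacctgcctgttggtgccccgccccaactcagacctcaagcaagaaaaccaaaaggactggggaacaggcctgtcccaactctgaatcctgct

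None of these windows holds the GATA letters, and Wnt5b holds 1 TCF/LEF match. GATA letters were found in 4 of the 29 promoters, those of Fzd1, Wnt2, Wnt8b and 1 of the 2 of Wnt11, beside 29.8% of all 32851 promoters in the table. TCF/LEF letters were in 4 of 29, those of Fzd7, Wnt3, Wnt5b and Wnt11, beside 16.9% of all. To show how GATA matches look in this gene set, 60 bases around a match are given for Fzd1 (chr5:4758370-4758429, minus strand), Wnt2 (chr6:18030422-18030481, minus strand) and Wnt11 (chr7:98838735-98838794, plus strand), with the match in capitals.
Fzd1: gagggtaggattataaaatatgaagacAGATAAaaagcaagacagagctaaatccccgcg
Wnt2: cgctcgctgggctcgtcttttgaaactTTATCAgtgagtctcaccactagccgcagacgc
Wnt11: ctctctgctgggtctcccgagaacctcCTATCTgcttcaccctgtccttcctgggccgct

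The 3 genes with these windows differed by -0.04 for Fzd1, 0.29 for Wnt2 and -0.21 for Wnt11, each with overlapping groups.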

How the data were processed

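RNA of 6 whisker pads was hybridised to Affymetrix MOE430A arrays of 1 colour, per the labels. In this series the deposited value table gives a linear signal intensity per probe set, already at 1 level on all arrays. How probe intensities were summarised: not given in the sources used here. The authors' deposited table of 65 probe sets, made with GeneSpring GX 10.0 per the series' design text, gives a linear fold ratio and 2 normalized log2 values per probe set, and was used only to see which probe sets it lists.

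Sample titles gave the groups and the replicate numbers. The 64 control probe sets were left out, 16 was added before log2, and 12393 genes were each represented by their brightest probe set among those annotated to 1 gene. The offset pulls differences of dim genes toward 0. Gene names were updated by gene number to GRCm38.p6, with 20351 of 20380 probe sets matched. The mutant group was tested against wild-type with limma 3.58.1 (lmFit, eBayes, two-sided, no covariates) in R 4.3.3, with Benjamini-Hochberg adjustment over all genes, or over all 22626 probe sets for values of other probe sets, and an adjusted p under 0.05 as a call. Tested on simulated arrays of 12393 genes, this fit called 37 of 100 genes that had a log2 shift of 1 and 87 of 100 that had a shift of 2. It also called 4 unchanged genes. The simulated noise was independent between genes, without the shift shared by the replicate 3 arrays, so these counts need not hold for the real arrays.

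The genes, lists and motifs were chosen with earlier results of these data known. Values on every array are given for genes with an unadjusted p under 0.05 or non-overlapping groups and, above the control, for 4 ligands and 4 Frizzled genes by wild-type signal and the smaller roles. Wnt3a and Wnt11 were added for their spread. Pathway genes are named at an unadjusted p under 0.05. Deviations of same-numbered arrays correlated at 0.038, 0.069 and 0.136 over all probe sets and at 0.139, 0.284 and 0.325 over the 6551 with a mean log2 value above 8. Over all probe sets wild-type replicate 1 correlated most with mutant replicate 2, while wild-type replicates 2 and 3 correlated most with the mutant of their own number. The labels name no shared litter or batch, so the numbers were not taken as pairs, and the block is an alternative. The number of arrays limits the precision. Alternatives concerned normalization, offset, filter, probe set choice, variance prior, array weights, block and left-out arrays.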

Additional observations from a re-analysis of the deposited data

How the results depend on the processing

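None of the 37 genes was called in those of 18 alternative limma fits that included it, or by the methods' unpaired test after adjustment. The number of genes called on the whole array was 0, except for 1 (Epyc) with the 7542 dimmest probe sets left out, and 186 genes, 1 of them a Wnt gene, at the study's unadjusted threshold. With the replicate number as a block, a replicate block fit, 2 genes of the set were higher and 1 lower with an unadjusted p under 0.05, Lgr5 taking the place of Lgr6. Such a block leaves each difference as it was in this balanced design and changes only its error. The count higher at that limit fell from 2 to 1 with quantile normalization, with array weights, without probe sets of suffix _x_at, _s_at or _a_at, and without the dimmest probe sets, and to 0 with equal medians or a trended prior. The count lower fell from 1 to 0 with a floor of 32 and without the dimmest probe sets. The fit without the dimmest probe sets tested only 27 of the 37 genes and left out Wnt5b and Wnt9a. The fit without those suffixes tested 32 and left out Wnt5b, so these counts fell because genes were removed. Leaving out 1 array gave 0 to 2 higher, 1 to 3 lower, 3 to 9 non-overlapping genes (8.11% to 24.3% of the set, beside 18.6% to 24.8% of all genes) and medians of -0.03 to 0.05. It moved the difference of 34 of the 37 genes by over 1.5 times at least once, all but Wnt5b, Wnt9a and Lgr6, and turned the sign of 20. The signs of those 3 could not turn there, because their groups do not overlap. Without both replicate 3 arrays 2 were lower and 10 did not overlap, or 27% of the set beside 39.7% of all genes, as fewer arrays overlap less. Without the dimmest probe sets 1 gene, Lgr6, did not overlap. Lrp6 differed by 0.70 and Wls by 0.23 when probe sets of a gene were averaged. Wnt5b differed by 0.53 with an offset of 1, 0.51 with a floor of 32 and 0.10 with averaged probe sets. Wnt9a differed by -2.17 with an offset of 1 and by 0 with a floor of 32. The other causes were not tested.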
